A study of Rattus norvegicus with 96 samples.

Results

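The endocannabinoid receptor and the enzymes that make and break down its ligands were followed in 2 brain regions of alcohol-preferring rats. The members asked for were Cnr1, Mgll, Faah, Dagla, Daglb, Napepld and Abhd6, and every probe set that the platform annotation assigns to one of these 7 symbols was taken. This gave 12 probe sets for 5 of the 7 genes, out of 31099 probe sets on the array, and 5 of the 14224 gene symbols it names: 4 for Mgll and 2 each for Cnr1, Faah, Daglb and Abhd6. The annotation used here holds no probe set for Dagla or Napepld, so neither gene is described further.

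The 96 arrays came from P rats, a line bred for high voluntary alcohol intake. The rats had limited access to ethanol or had water, and were sampled 1, 6 or 24 h from their last session, which makes 12 groups over both regions. For the central nucleus of the amygdala (CeA), ethanol rats gave 11, 10 and 10 arrays at 1, 6 and 24 h, and water rats gave 6, 5 and 6. For the nucleus accumbens shell (NAc shell), ethanol rats gave 10, 10 and 11 arrays at those hours, and water rats gave 7, 5 and 5. The labels do not say how the water rats were housed or handled, nor which CeA and NAc shell arrays came from the same rat, and arrays of both regions were treated as independent. They also do not state that each array holds 1 rat, so the p-values below measure the spread between arrays.

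CB1, the product of Cnr1, is a presynaptic receptor that is activated by lipids released from the postsynaptic cell and dampens transmitter release. One of these lipids, 2-arachidonoylglycerol, is made by the diacylglycerol lipases (Dagla, Daglb) and broken down by monoacylglycerol lipase (Mgll) and, to a smaller extent, by Abhd6. The other, anandamide, can be made by the phospholipase of Napepld and is broken down by the hydrolase of Faah. In both regions the system is known as a modulator of synapses that alcohol acts on.

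All values are log2 expression from RMA (robust multi-array averaging), so a difference of 1 is a doubling of signal. Levels of different probe sets cannot be set against each other. Differences were tested with limma over 18625 probe sets per region, or 17572 for comparisons between regions, and "passed" means a Benjamini-Hochberg adjusted p under 0.05 over all of them. Of the 12 probe sets, 11 were above the filter on low values in both regions and were tested; the exception was Mgll 1375355_at, which averaged 5.75 in CeA and 6.11 in NAc shell and is not considered further. The lower quartile of the arrays lay between 5.75 and 5.88 in CeA and between 6.01 and 6.16 in NAc shell, without overlap. The deposited values thus carry an offset in their low range between regions. Whether the regions were normalized together is not given, and every level compared between regions below is set across that offset. The 3′ to 5′ signal difference of Gapdh, a measure of RNA length, differed as well. Its mean was 2.91 in CeA (range 2.17 to 3.82) and 1.81 in NAc shell (range 1.31 to 2.32). Where it served as a covariate between regions it was centred within each region, which leaves this difference in place. Its part in the differences between regions was not tested.

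The tissue markers separated the regions in part. All 7 tested markers of medium spiny neurons, the main cell type of the accumbens, were lower in CeA, with log2 differences of -2.80 to -1.98 in ethanol rats. Of 6 tested central amygdala markers, 1 was higher in CeA in ethanol rats (Prkcd, by 0.86) and 4 were lower. One array of the NAc shell ethanol group at 6 h stood apart: its mean over 5 markers of cortical and basolateral neurons was 8.62, against at most 7.47 in the other 47 arrays of the region, and Slc17a7, the vesicular glutamate transporter of such neurons, was at 11.39 against at most 8.78. This array is called the outlying NAc shell array, and the values that it moved most are given with and without it. The part that such tissue plays in its values was not tested.

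Cnr1 was the member that differed most in favour of CeA. Its probe set 1369677_at averaged 13.10 ± 0.26 in CeA and 11.82 ± 0.42 in NAc shell (SD, n = 48 each). In CeA ethanol rats the lowest, median and highest arrays were at 12.27, 13.13 and 13.58 at 1 h, 12.74, 13.17 and 13.53 at 6 h, and 12.88, 13.18 and 13.42 at 24 h. In CeA water rats they were at 12.74, 13.12 and 13.21 at 1 h and 12.92, 13.10 and 13.51 at 24 h, and the 5 arrays at 6 h read 12.55, 12.81, 12.89, 13.05 and 13.23. All 6 CeA groups thus covered about the same range, with the water group at 6 h at its lower end.

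In NAc shell ethanol rats Cnr1 1369677_at was at 11.33, 11.95 and 12.12 at 1 h, 11.09, 11.64 and 13.52 at 6 h, and 11.17, 11.90 and 12.32 at 24 h (lowest, median, highest). In NAc shell water rats it was at 11.58, 11.86 and 12.05 at 1 h. The 5 water arrays at 6 h read 10.99, 11.72, 11.76, 11.85 and 12.39, and those at 24 h read 11.34, 11.48, 11.66, 11.89 and 12.25. In water rats all 17 CeA arrays lay above all 17 NAc shell arrays. In ethanol rats 3 of 31 NAc shell arrays reached above the lowest CeA array, and the highest of them, at 13.52, was the outlying array, whose nearest neighbour in its own group read 12.17.

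**Figure D1:**
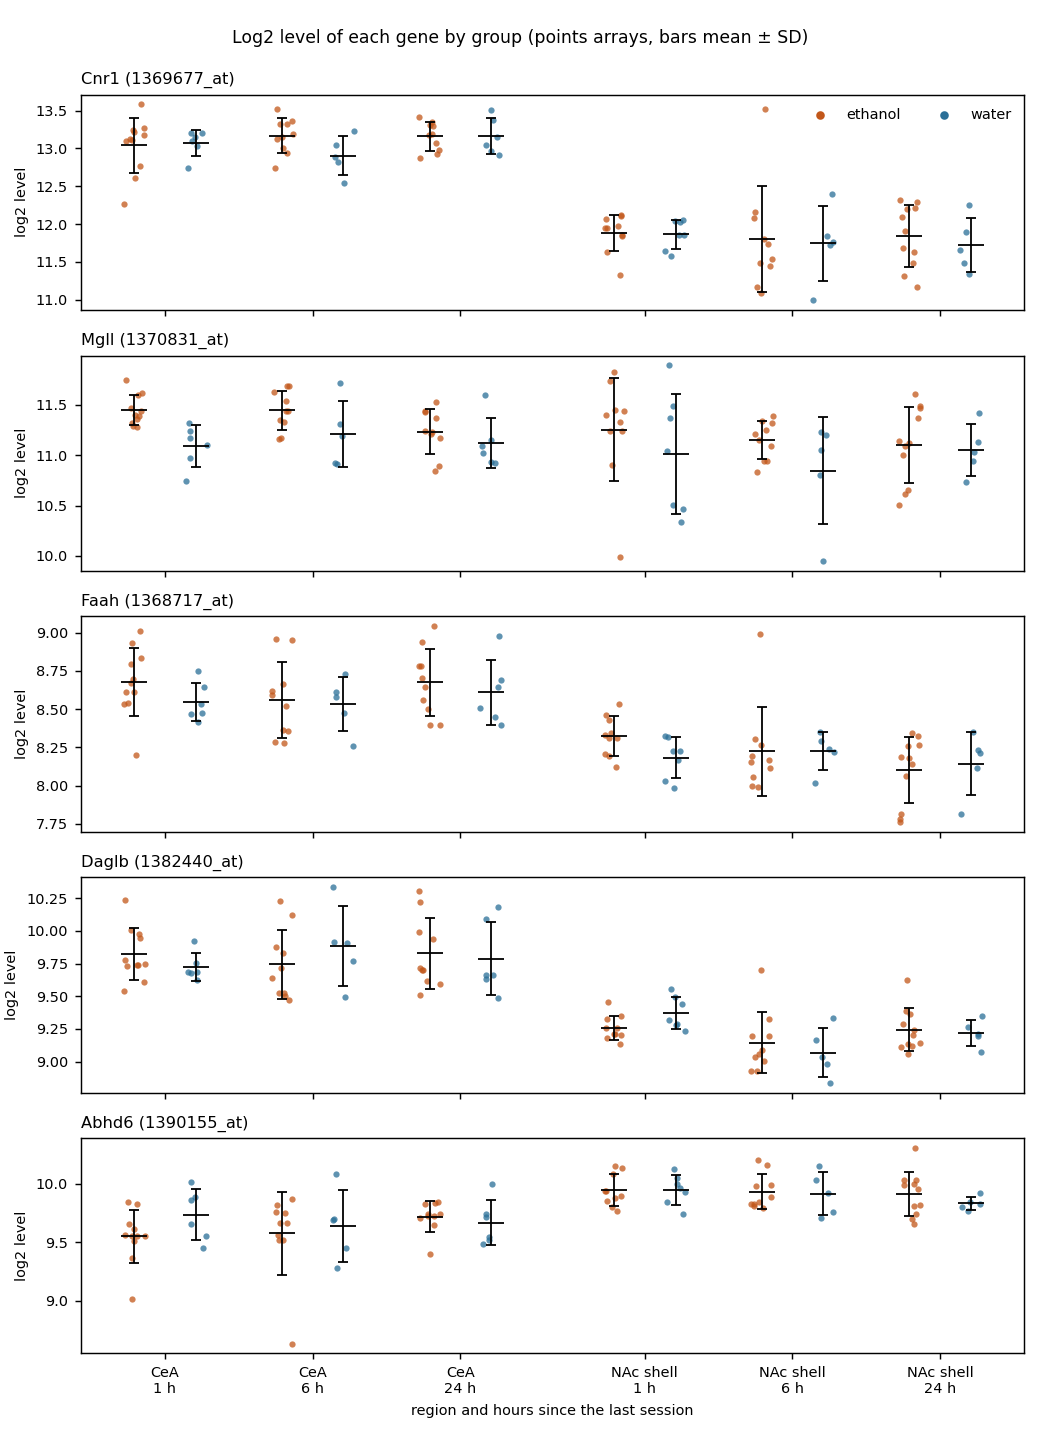
Log2 expression of the most highly expressed probe set of Cnr1, Daglb, Mgll, Abhd6 and Faah in each of the 96 arrays, by region, treatment and hours since the last session; points are arrays and bars give each group's mean ± SD. Cnr1, Daglb and Faah lie higher in CeA, Abhd6 lies lower, and Mgll overlaps between the regions; 1 NAc shell ethanol array at 6 h reads 13.52 for Cnr1.

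Cnr1 1369677_at was higher in CeA by 1.28 ± 0.09 (SE) in ethanol rats, a 2.43-fold difference with a 95% interval of 1.10 to 1.46 on the log2 scale (limma adjusted p = 1.8e-23). The difference in water rats was 1.27 ± 0.12, or 2.41-fold (adjusted p = 7.0e-16). Without the outlying array it was 1.34 in ethanol rats. The second Cnr1 probe set, 1387674_at, was higher in CeA as well, by 0.55 ± 0.08 in ethanol rats and 0.54 ± 0.11 in water rats, and passed in both. In bulk tissue a higher level per cell and a larger share of cells that express the gene cannot be told apart.

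The comparison between regions called a large part of the array. All 11 tested member probe sets passed in ethanol rats (6 higher in CeA, 5 lower), where 81.2% of all tested probe sets passed, 38.2% higher and 42.9% lower in CeA. In water rats 10 of 11 passed (5 higher, 5 lower), against 73.8% of all, 35.5% higher and 38.3% lower. The member counts are near this background, so they say little about these genes in particular.

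**Figure D2:**
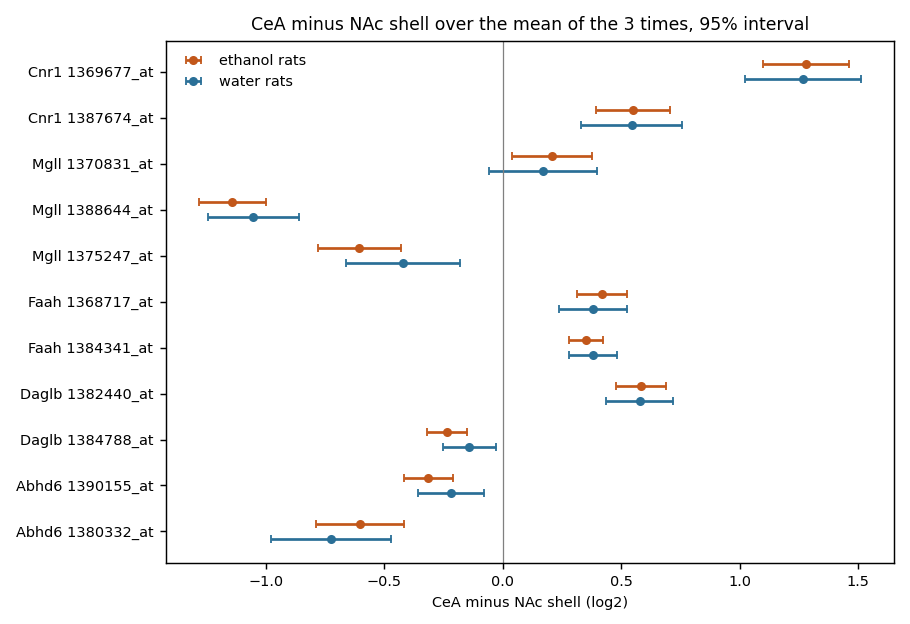
Difference CeA minus NAc shell in log2 expression for the 11 tested member probe sets, in ethanol rats and in water rats, with 95% intervals. Both Cnr1 and both Faah probe sets lie above 0 and both Abhd6 probe sets below it, while the probe sets of Mgll and of Daglb fall on both sides.

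Daglb, a diacylglycerol lipase and thus a source of 2-arachidonoylglycerol, gave opposite directions with its 2 probe sets. Probe set 1382440_at averaged 9.80 ± 0.24 in CeA and 9.22 ± 0.18 in NAc shell (SD, n = 48 each) and was higher in CeA by 0.58 ± 0.05 in ethanol rats and 0.58 ± 0.07 in water rats. Its arrays ranged from 9.47 to 10.30 in CeA and from 8.93 to 9.70 in NAc shell among ethanol rats, and 19 of 31 CeA arrays were above every NAc shell array. Among water rats 15 of 17 were. Probe set 1384788_at was lower in CeA, by 0.24 ± 0.04 in ethanol rats (limma adjusted p = 4.0e-07) and 0.14 ± 0.06 in water rats (adjusted p = 0.022). The call in water rats was lost without CeA water array 5 at 1 h (adjusted p = 0.0508) or array 13 at 6 h (adjusted p = 0.0546). The mean of both Daglb probe sets was higher in CeA, by 0.17 in ethanol rats and 0.22 in water rats, and passed in both. As the probe sets disagree, a direction between regions for Daglb as a gene is not given.

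Mgll, the main enzyme of 2-arachidonoylglycerol breakdown, also had probe sets that disagreed between regions. Probe set 1370831_at averaged 11.29 ± 0.25 in CeA and 11.10 ± 0.42 in NAc shell (SD, n = 48 each), and the difference was 0.21 ± 0.08 in ethanol rats (limma adjusted p = 0.020) and 0.17 ± 0.11 in water rats (adjusted p = 0.18, 95% interval -0.06 to 0.40). Without NAc shell ethanol array 33 at 1 h, which read lowest of its group at 9.99, the first was 0.16 with an adjusted p of 0.0507. Probe set 1388644_at was lower in CeA by 1.14 ± 0.07 in ethanol rats and 1.05 ± 0.10 in water rats, and in water rats its 17 CeA arrays, at 8.91 to 9.96, all lay below the 17 NAc shell arrays, at 10.09 to 11.16. Probe set 1375247_at was lower in CeA too, by 0.60 ± 0.09 in ethanol rats and 0.42 ± 0.12 in water rats. Averaged over the 3 tested probe sets, Mgll was lower in CeA by a log2 difference of -0.51 in ethanol rats and -0.44 in water rats, the reverse of 1370831_at alone.

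Abhd6, a second hydrolase of 2-arachidonoylglycerol, was lower in CeA with both probe sets. Probe set 1390155_at differed by -0.31 ± 0.05 in ethanol rats and -0.22 ± 0.07 in water rats, and 1380332_at by -0.60 ± 0.09 and -0.72 ± 0.13. All 4 differences passed. The arrays overlapped: in ethanol rats 1390155_at ran from 8.63 to 9.87 in CeA and from 9.66 to 10.30 in NAc shell, and 15 of 31 CeA arrays lay below every NAc shell array.

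Faah, which hydrolyses anandamide, was higher in CeA with both probe sets, and all 4 differences passed. Probe set 1368717_at averaged 8.61 ± 0.21 in CeA and 8.20 ± 0.21 in NAc shell (SD, n = 48 each), a difference of 0.42 ± 0.05 in ethanol rats and 0.38 ± 0.07 in water rats (1.34-fold and 1.30-fold). Probe set 1384341_at differed by 0.35 ± 0.04 in ethanol rats and 0.38 ± 0.05 in water rats. In water rats 16 of 17 CeA arrays were above every NAc shell array with either probe set. In ethanol rats 2 of 31 were for 1368717_at. The outlying NAc shell array read 8.99 there, against at most 8.53 in the other arrays of its region, and the difference was 0.45 without it. The annotation pairs both Faah probe sets with a pair of gene entries of that symbol.

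Ordered by mean over the 12 groups, Cnr1, Daglb and Faah (the most highly expressed probe set of each) had all 6 CeA groups on top. Of the 11 gaps between neighbours in that order, 1 was larger than the SD of both groups beside it: 1.02 for Cnr1 below the CeA water group at 6 h, 0.35 for Daglb below the CeA water group at 1 h and 0.21 for Faah below the CeA water group at 6 h. The next largest gaps were 0.14, 0.12 and 0.10, within the spread of the arrays. Groups of 1 region that are not neighbours in the order can lie farther apart, as Daglb 1382440_at did in NAc shell water rats, at 9.07 ± 0.19 at 6 h and 9.37 ± 0.12 at 1 h (SD, n = 5 and 7). For Abhd6 all 6 NAc shell groups were on top, and for Mgll 4 CeA groups were among the top 6. Neither had a neighbour gap above the spread; their largest were 0.10 and 0.19.

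Promoter sequence was available for 5 members, and those of Mgll, which carried the largest ethanol difference in CeA, and Faah, the member with both probe sets higher in CeA for which a sequence was at hand, are shown. Each is the 250 bases before the annotated start in RefSeq (GRCr8), read 5′ to 3′ on the strand of the gene: Mgll at chr4:122749186-122749435, plus strand, and Faah at chr5:134735397-134735646, minus strand. Capitals mark matches on either strand to a GC box (GGGCGG, reverse CCGCCC) or an E box (CACGTG), which do not overlap each other here.
Mgll: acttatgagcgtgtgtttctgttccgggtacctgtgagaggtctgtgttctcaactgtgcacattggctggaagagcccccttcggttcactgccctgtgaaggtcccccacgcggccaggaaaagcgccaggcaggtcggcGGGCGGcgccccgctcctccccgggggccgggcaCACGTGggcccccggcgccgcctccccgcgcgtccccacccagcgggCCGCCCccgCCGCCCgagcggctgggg
Faah: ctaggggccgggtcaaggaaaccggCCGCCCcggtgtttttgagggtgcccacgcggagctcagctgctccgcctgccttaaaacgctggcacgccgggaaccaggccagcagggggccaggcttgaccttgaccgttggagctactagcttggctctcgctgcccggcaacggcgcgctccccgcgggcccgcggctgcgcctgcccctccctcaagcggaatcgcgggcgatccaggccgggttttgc
The Mgll window held 3 GC boxes and 1 E box and the Faah window 1 GC box. Of 33469 rat promoters of that length, 30.5% held a GC box and 5.59% an E box. No match to a cAMP response element (TGACGTCA, in 1.59% of promoters) was found in either. G and C made up 72.4% of the Mgll window and 70.4% of the Faah window, against a median of 51.2% over all. Of the member windows not shown, those of Daglb and Abhd6 held no GC box and no E box (56.4% and 58.4% G and C). The Napepld window held 8 GC boxes and no E box (77.2% G and C). These are matches of letters, and no binding was measured.

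Ethanol against water was tested within each region, over the mean of the 3 hours. No member passed in CeA or in NAc shell, and neither did any other probe set (0.0% in CeA and 0.0% in NAc shell). At an unadjusted limma p under 0.05, 2 of 11 member probe sets differed in CeA, where 8.16% of all did, and 2 of 11 in NAc shell, where 11.1% of all did. The median member difference was 0.06 in CeA and 0.03 in NAc shell, against -0.00 and 0.01 over all tested probe sets.

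**Figure D3:**
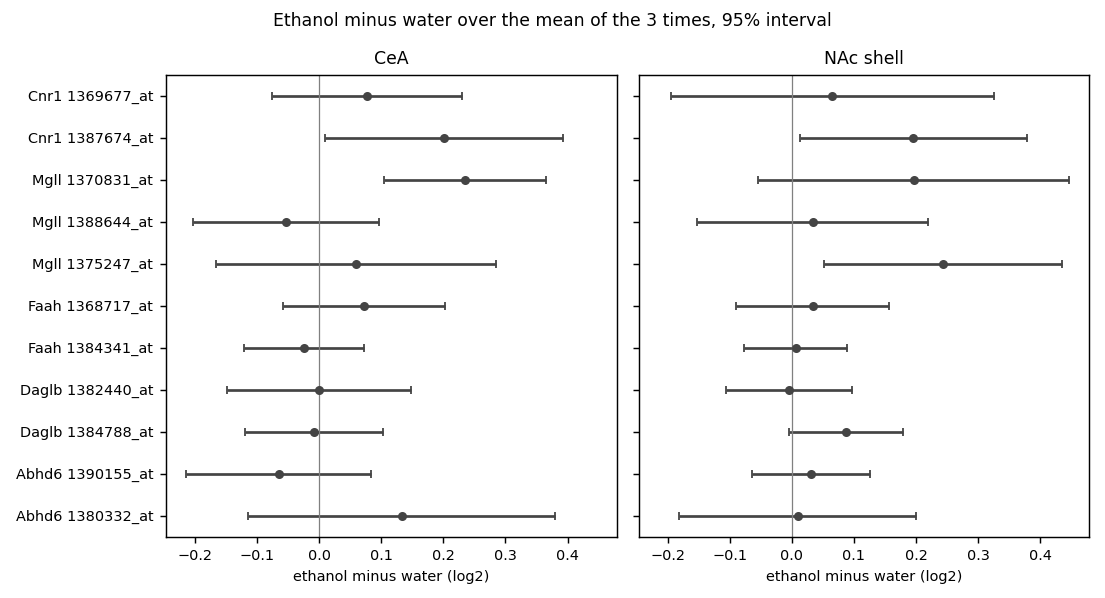
Difference ethanol minus water in log2 expression over the mean of 1, 6 and 24 h for the 11 tested member probe sets in CeA and NAc shell, with 95% intervals. Mgll 1370831_at in CeA lies at 0.23 and most others within 0.10 of 0; no difference passed after adjustment over all probe sets.

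Mgll 1370831_at showed the largest difference of the members in CeA, 0.23 ± 0.07 with a 95% interval of 0.10 to 0.37, or 1.18-fold (limma p = 0.00075, adjusted p = 0.32). At 1 h its 11 ethanol arrays ran from 11.28 over a median of 11.40 to 11.75, and its 6 water arrays from 10.74 over 11.13 to 11.32. At 6 h the ethanol arrays were at 11.16, 11.44 and 11.69 (lowest, median, highest), and the 5 water arrays read 10.91, 10.92, 11.19, 11.31 and 11.71. At 24 h the values were 10.84, 11.23 and 11.53 with ethanol and 10.92, 11.06 and 11.60 with water. Over all hours 29 of 31 ethanol arrays were above the water median, but the groups overlapped over nearly their whole range. At 1 h 9 of 11 ethanol arrays were above every water array.

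The Mgll value rested on that probe set. Its other 2 tested probe sets gave 0.06 ± 0.11 (1375247_at) and -0.05 ± 0.07 (1388644_at) in CeA, and their mean with the first was 0.08 (adjusted p = 0.71). The title numbers of the CeA arrays fall into 4 runs along which the hours start again, and within these runs the 1370831_at difference was 0.16, 0.27, 0.13 and 0.77; the last run holds only 2 water arrays, both at 6 h. Without the 4 CeA arrays that correlated least with the rest it was 0.16 (adjusted p = 0.65). In the same comparison all 7 tested central amygdala markers and all 7 medium spiny markers were above 0, with medians of 0.26 (range 0.04 to 0.49) and 0.13 (range 0.05 to 0.27), and 1 of 6 microglial and 1 of 5 oligodendrocyte markers were; none of these passed. The part of cell composition in the Mgll difference was not tested.

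**Figure D4:**
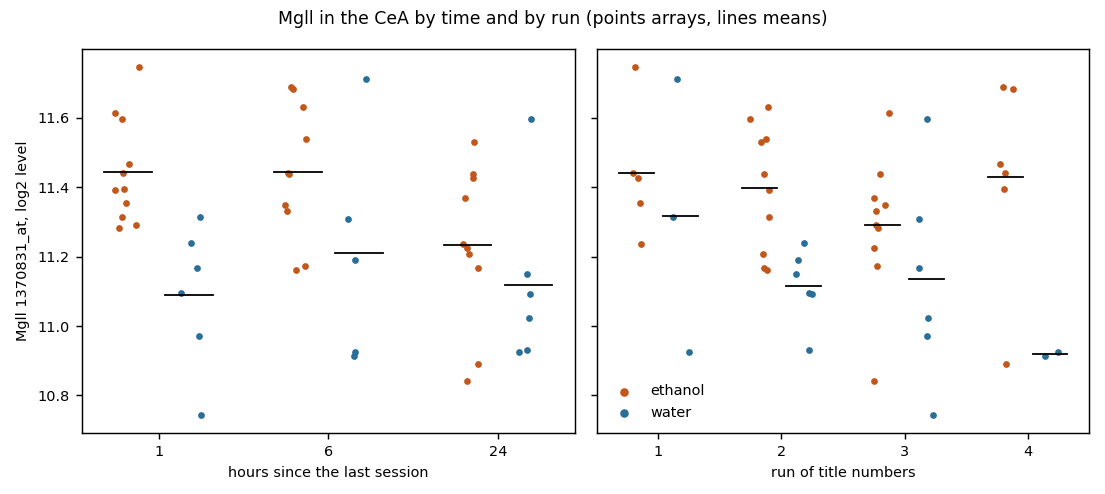
Log2 expression of Mgll 1370831_at in each of the 48 CeA arrays, by treatment and hours since the last session (left) and by run of title numbers (right); lines are means. The ethanol arrays at 1 h lie between 11.28 and 11.75, 9 of 11 above every water array at that hour, and the groups overlap at 6 and 24 h.

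In NAc shell Mgll was also above 0 with its 3 tested probe sets, by 0.20 ± 0.12 (1370831_at, limma adjusted p = 0.56), 0.24 ± 0.10 (1375247_at, adjusted p = 0.32) and 0.03 ± 0.09 (1388644_at). Cnr1 1387674_at was 0.20 above water in both regions (± 0.10 in CeA, ± 0.09 in NAc shell), with adjusted p of 0.60 and 0.42, and 0.16 in NAc shell without the outlying array. Cnr1 1369677_at differed by 0.08 ± 0.08 in CeA (95% interval -0.08 to 0.23) and by 0.07 ± 0.13 in NAc shell, and by 0.0017 in NAc shell without the outlying array. For Faah the differences were 0.07 and -0.02 in CeA and 0.03 and 0.01 in NAc shell, and for Daglb -0.00 and -0.01 in CeA and -0.01 and 0.09 in NAc shell. Abhd6 gave -0.07 and 0.13 in CeA and 0.03 and 0.01 in NAc shell. For the most highly expressed probe sets of Faah, Daglb and Abhd6 the 95% intervals ran from -0.21 to 0.20 in CeA and from -0.11 to 0.16 in NAc shell, so larger differences lie outside them.

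Hour by hour, no member passed in either region, and 0.0% of all probe sets passed in each of these comparisons. In CeA 1, 1 and 0 of 11 member probe sets had an unadjusted limma p under 0.05 at 1, 6 and 24 h, against 5.43%, 8.22% and 0.655% of all, and in NAc shell 0, 1 and 0, against 1.88%, 5.23% and 3.74%. Mgll 1370831_at in CeA differed by 0.36 ± 0.11 at 1 h (95% interval 0.14 to 0.58, adjusted p = 0.89), 0.23 ± 0.12 at 6 h and 0.11 at 24 h. At 6 h in CeA Cnr1 1387674_at differed by 0.42 ± 0.17 (adjusted p = 0.57). Its 10 ethanol arrays ran from 7.47 to 8.62 there, and the water arrays read 7.22, 7.63, 7.82, 7.82 and 8.01, so 7 of 10 ethanol arrays were above all of them. Cnr1 1369677_at was 0.26 ± 0.14 above water at that hour. For 1387674_at the value was 0.33 without the 4 CeA arrays of low correlation, of which 1 of 10 was in this ethanol group and 2 of 5 were in this water group, and 0.30 without water array 17. Marker levels differed between these groups too: the mean of 6 microglial markers was 8.43 in ethanol and 8.73 in water arrays, that of 5 oligodendrocyte markers 12.71 and 13.14, and that of 8 central amygdala markers 9.54 and 9.06. The arrays overlapped for all 3 lists, with ranges of 8.08 to 8.87 and 8.34 to 9.14 for microglia, and the part of cell composition in the Cnr1 differences was not tested.

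In NAc shell at 6 h Daglb 1384788_at differed by 0.21 ± 0.08 (limma adjusted p = 0.90). Its 10 ethanol arrays ran from 8.35 to 9.0, the highest being the outlying array, and the water arrays read 8.10, 8.30, 8.36, 8.44 and 8.45. The difference was 0.16 without the outlying array. Joint tests over the 3 hours of whether the ethanol difference changed with the hour called no member in either region, with 0.0% of all probe sets called in both. No member had an unadjusted limma p under 0.05 in these joint tests, against 1.34% of all in CeA and 0.864% in NAc shell. For 6 h against 1 h alone in NAc shell, 1 of 11 did, against 1.1% of all (0.0% after adjustment): Daglb 1384788_at, with a change of 0.26 ± 0.11 (adjusted p = 1.0), or 0.21 without the outlying array.

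Across hours within a treatment no member passed either. The test over the 3 hours called 0.0591% of all probe sets among CeA ethanol arrays, 0.0% among CeA water arrays, 0.0376% among NAc shell ethanol arrays and 0.0% among NAc shell water arrays. At an unadjusted limma p under 0.05 it gave 1, 0, 2 and 1 of 11 member probe sets in the same order, against 3.51%, 3.32%, 3.92% and 3.64% of all. Without the outlying array the NAc shell counts were 3 in ethanol and 2 in water rats. In CeA ethanol rats Mgll 1370831_at averaged 11.45 ± 0.15, 11.44 ± 0.19 and 11.23 ± 0.23 at 1, 6 and 24 h (SD, n = 11, 10 and 10), and the difference 24 h minus 1 h was -0.21 ± 0.09 (SE; limma adjusted p = 0.98, 0.0% of all called). In NAc shell ethanol rats Faah 1368717_at averaged 8.32 ± 0.13, 8.22 ± 0.29 and 8.10 ± 0.22 (SD, n = 10, 10 and 11), and 24 h minus 1 h was -0.22 ± 0.09 (adjusted p = 1.0, 0.0% of all called); for 1384341_at it was -0.15 ± 0.06. Without the outlying array 6 h minus 1 h in these rats was -0.19 ± 0.08 for Faah 1368717_at (limma adjusted p = 0.93), against -0.10 with it, and -0.17 ± 0.07 for Daglb 1382440_at (adjusted p = 0.93), against -0.11 with it. In NAc shell water rats Daglb 1382440_at averaged 9.37 ± 0.12, 9.07 ± 0.19 and 9.22 ± 0.10 (SD, n = 7, 5 and 5), and 6 h minus 1 h was -0.30 ± 0.10 (adjusted p = 1.0, 0.0% of all called). That difference was -0.18 with the 3′ to 5′ signal difference of Gapdh, a measure of RNA length, as a covariate. Among other genes in CeA ethanol rats, the clock gene Nr1d1 fell by 0.48 at 6 h against 1 h (limma adjusted p = 0.0039) and its paralogue Nr1d2 by 0.32 (adjusted p = 0.0096). They were 2 of 9 tested clock genes and among the 0.0322% of probe sets called there. Both were also lower at 6 h in CeA water rats (-0.36 and -0.18), NAc shell ethanol rats (-0.28 and -0.22) and NAc shell water rats (-0.20 and -0.18). Neither passed in these. In CeA ethanol rats Nr1d1 and Nr1d2 were higher at 24 h than at 6 h, by 0.49 and 0.33 (limma adjusted p = 0.0031 and 0.0071). In CeA water rats Nr1d1 was higher at 24 h than at 6 h by 0.67 (limma adjusted p = 0.011), and Nr1d2 by 0.30, which did not pass. Time of day was not part of the fit, and its part in changes over hours was not tested.

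The ethanol difference itself was compared between regions, where a constant offset between them cancels. No member passed over the 3 hours (0.0% of all probe sets did), 0 of 11 had an unadjusted limma p under 0.05 against 9.39% of all, and the differences CeA minus NAc shell of the ethanol difference ran from -0.18 to 0.12 with 95% intervals within -0.48 to 0.44. For Mgll 1370831_at it was 0.04 ± 0.14, and for Cnr1 1369677_at 0.01 ± 0.15, or 0.08 ± 0.13 without the outlying array. At 6 h 0.0% passed too, 1 of 11 had an unadjusted p under 0.05 against 11.1% of all, and that one, Daglb 1384788_at, gave -0.30 ± 0.13 (limma adjusted p = 0.43), or -0.25 ± 0.12 without the outlying array (adjusted p = 0.48).

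The wider pathway was read from a list of 29 other genes of endocannabinoid signalling, of which 25 had a probe set and 16 were tested. None of the 4 further receptors and targets with a probe set, among them Cnr2 and Trpv1, was above the filter. Between regions 15 of the 16 passed in ethanol rats (10 higher in CeA, 5 lower), where 81.2% of all passed, 38.2% higher and 42.9% lower. In water rats 14 passed (9 higher, 5 lower), against 73.8% of all, 35.5% higher and 38.3% lower. The totals are again near this background. The share higher in CeA was above it in this short list, and this was not tested. Higher in CeA in ethanol rats were Plcb4, a phospholipase that supplies diacylglycerol (by 1.46), the CB1-interacting protein gene Cnrip1 (0.67), Naaa, an amide hydrolase (0.60), and Fabp5, a fatty acid carrier (0.53). Smaller differences in the same direction were those of Plcb1 (0.24), Pla2g4e (0.24), Fabp7 (0.22), Gde1 (0.18), Abhd4 (0.17) and Gdpd1 (0.15), the last of which did not pass in water rats (0.08). Plcb3 did not pass in either. Lower were the glutamate receptor Grm5 (-1.03), Ptgs2, a cyclooxygenase (-0.71), the hydrolase Abhd12 (-0.59), Fabp3 (-0.41) and the CB1 partner Sgip1 (-0.14).

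Ethanol against water called none of these 16 genes. In CeA 6 were above 0 and 10 below, with a median of -0.04 and 0 of 16 at an unadjusted limma p under 0.05, against 8.16% of all tested probe sets; the smallest p belonged to Gde1 (-0.10), Abhd4 (-0.11) and Plcb4 (-0.15). In NAc shell 10 were above 0, with a median of 0.03, and 4 of 16 had an unadjusted limma p under 0.05, against 11.1% of all: Fabp3 (0.15), Abhd12 (0.13), Fabp5 (0.23) and Grm5 (0.25).

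Genes whose pattern was most like each member were sought by Pearson correlation over the 48 arrays of each region, after each group's mean was taken off, among 12697 probe sets of 1 gene symbol. They are ranked by the smaller of the r values of the regions, which were chosen as the highest of many, so no test is given. For Cnr1 these were Gpc4, a glypican (r = 0.83 in CeA and 0.83 in NAc shell, Spearman rho 0.81 and 0.70), Satb1 (0.77 and 0.73) and Opcml (0.69 and 0.72). Leaving out the 2 arrays farthest from the Cnr1 median gave 0.80 and 0.73 for Gpc4, and leaving out the outlying array gave 0.70 in NAc shell. Without that array Satb1 was at 0.60 and Opcml at 0.47 there. In CeA the Gpc4 correlation lay between 0.73 and 0.82 within the 4 runs, that of Satb1 between 0.67 and 0.89 and that of Opcml between 0.53 and 0.79. Such correlations are over tissue samples of 1 region, in which all genes share the dissection and the RNA of the sample.

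**Figure D5:**
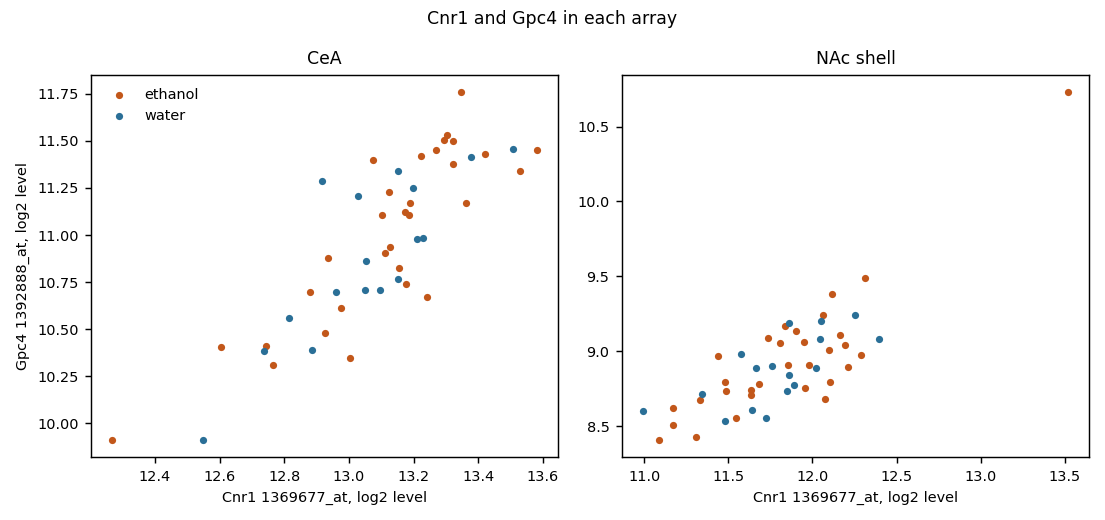
Log2 expression of Cnr1 1369677_at against Gpc4 in each array, CeA and NAc shell apart; points are arrays, coloured by treatment. Both rise together within each region, and the NAc shell array at 13.52 for Cnr1 is also the highest for Gpc4 in its region, at 10.73.

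For Mgll the most alike genes were Cbfa2t3 (r = 0.71 in CeA and 0.78 in NAc shell), Mef2a (0.69 and 0.66) and Pde10a, a phosphodiesterase of medium spiny neurons (0.65 and 0.73). For Abhd6 they were Lgalsl (0.72 and 0.73), Plcl2 (0.78 and 0.71) and Myo5b (0.72 and 0.70). For Daglb they were Hbs1l (0.74 and 0.70), Dusp3 (0.75 and 0.68) and Tp53inp2 (0.84 and 0.68). Without the outlying array the NAc shell values were 0.64 for Hbs1l, 0.58 for Dusp3 and 0.64 for Tp53inp2. For Faah the most alike genes were Pld3 (0.80 and 0.64), Tubb3 (0.62 and 0.66) and Slc6a17 (0.62 and 0.70). Without the outlying array the NAc shell values were 0.50 for Pld3, 0.58 for Tubb3 and 0.50 for Slc6a17. The last of these did not hold within the CeA runs, where r was between 0.09 and 0.39, and that of Tubb3 was between -0.04 and 0.83.

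Probe sets of the same gene were less alike than these genes in several cases. The genes above were picked as the highest of many in these arrays, so a lower value is no measure of disagreement by itself. In CeA the Faah probe sets had r = -0.17 (between -0.11 and 0.38 within runs) and in NAc shell 0.60, or 0.35 without the outlying array. Mgll 1370831_at had r = 0.12 in CeA and 0.79 in NAc shell with 1375247_at, and 0.19 and 0.48 with 1388644_at. For Cnr1 the values were 0.58 in CeA, but between -0.38 and 0.76 within runs, and 0.58 in NAc shell, or 0.36 without the outlying array. For Daglb they were 0.30 (between 0.10 and 0.59 within runs) and 0.59, or 0.43 without that array, and for Abhd6 0.49 (between -0.16 and 0.88 within runs) and 0.52. Within CeA runs the Mgll values lay between -0.50 and 0.66 for 1375247_at and between -0.15 and 0.37 for 1388644_at. Among members, Daglb 1382440_at and Abhd6 1390155_at had r = -0.63 in CeA, negative in all 4 runs (-0.88 to -0.30), and -0.01 in NAc shell.

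Members also followed cell markers within CeA. Cnr1 1369677_at had r = -0.82 with the mean of 6 microglial markers (between -0.89 and -0.53 within runs), -0.76 with 5 oligodendrocyte markers (between -0.81 and -0.11) and 0.70 with 8 central amygdala markers. The last did not hold in all runs, with -0.01, 0.65, 0.84 and 0.00 in runs 1 to 4. In NAc shell the same 3 values were 0.20, 0.10 and -0.20, or 0.34, 0.24 and -0.08 without the outlying array. Daglb 1382440_at ran the other way in CeA, with -0.83 for central amygdala markers (between -0.92 and -0.62 within runs) and 0.74 for oligodendrocyte markers (between 0.39 and 0.82). In NAc shell its values for these lists were -0.28 and 0.035, or -0.195 and 0.133 without the outlying array. Mgll 1370831_at followed medium spiny markers in both regions (0.56 in CeA, between 0.42 and 0.72 within runs, and 0.69 in NAc shell). Each array is a tissue sample, so these values describe samples and not cells.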

How the data were processed

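Total RNA from CeA and NAc shell of P rats was labelled by a 2-cycle protocol from 25 ng and read on an Affymetrix rat expression array, per the labels' protocols. The deposited values are log2 expression per probe set, made by the authors with RMA (no version given), per the submitters' processing notes; whether the regions were normalized together is not given in the sources used here. The number of arrays limits the precision.

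From these values, control probe sets (57 of 31099) and, per region, probe sets at or under the 40th percentile of mean level were left out. The log2 values were fitted with limma 3.58.1 in R 4.3.3 (lmFit, eBayes with trend), with 1 mean per group of treatment and hours in each region, and all 96 arrays and 12 groups for comparisons between regions. P-values were adjusted by Benjamini-Hochberg over all probe sets tested. The fits were tested on simulated data. Probe sets were named through the platform annotation, which gives 1 symbol to 20837, several to 425 and none to the rest. The probe set of highest mean stands for a gene where 1 is needed. The genes named are the members, the pathway genes with an unadjusted p under 0.05 or the 3 smallest p per region (between regions all 16 tested), the clock genes that passed, and the 3 genes most like each member in both regions. Prkcd, Slc17a7 and Cck were named after their values were seen. Members and lists were chosen with earlier results of these data known.

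Title numbers that recur across CeA groups were checked as pairs. Same-numbered arrays had a mean correlation of deviations of 0.07 over 17 pairs in CeA and -0.33 over 3 pairs in NAc shell, so the number was not used as a block in the fit reported. Arrays of the same CeA run were more alike, with a mean of 0.21 over 147 pairs, against -0.08 over 380 pairs of different runs. The mean Gapdh 3′ to 5′ difference was 2.46, 2.51, 3.45 and 3.09 in runs 1 to 4. The fit reported has no term for the run, because no label says that it marks a batch. Alternatives were a filter at the 60th percentile, no filter, repeated quantile normalization, array weights, the Gapdh 3′ to 5′ difference, the title number and the CeA run as blocks, leaving out arrays of low correlation (over 3 scaled MADs) or each array in turn, and the mean of a gene's probe sets.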

Additional observations from a re-analysis of the deposited data

Results flagged for a closer look

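For the most highly expressed probe sets of the 5 members over the 12 groups, 50 of the sets of gene and group were tested for single far arrays. The remaining sets were not tested, so the count does not cover every group of each member. In 7 of the 50 the distance of an array to its nearest neighbour was large for the range of its group. Chance gives about 1 in 20 for independent sets. The sets share arrays across genes, so 7 of 50 is not read as an excess. In the NAc shell ethanol group at 6 h, 3 of the 7 were the same array. It read 13.52 for Cnr1 (nearest 12.17), 8.99 for Faah (nearest 8.31) and 9.70 for Daglb (nearest 9.32). Its second probe sets moved likewise, with 8.61 for Cnr1 1387674_at, 8.29 for Faah 1384341_at and 9.0 for Daglb 1384788_at, each the highest of the 48 arrays of the region. Abhd6 1380332_at read 9.01 there, against at least 9.65 in the rest of its group. Cck, a peptide of interneurons and cortical cells, was at 12.79 in this array, against at most 11.09 in the other NAc shell arrays. Whether the array holds tissue from outside the NAc shell was not tested.

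The other 4 were single arrays. Mgll 1370831_at had a highest value of 11.60 in the CeA water group at 24 h (nearest 11.15) and a lowest value of 9.99 in the NAc shell ethanol group at 1 h (nearest 10.90). Abhd6 1390155_at had lowest values of 9.40 in the CeA ethanol group at 24 h (nearest 9.65) and 8.63 in the CeA ethanol group at 6 h (nearest 9.52).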

How the results depend on the processing

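Counts of members called did not move by over 1.5 times under these alternatives, with 1 exception: the filter at the 60th percentile left 7 member probe sets, of which 7 passed between regions in ethanol rats and 6 in water rats. Leaving out each array gave 10 to 11 and 9 to 10. With the title number as a block, 11 and 10 passed, no member was called for ethanol, and Mgll 1370831_at in CeA was 0.24 (adjusted p = 0.22); the block changed no call. The same Mgll difference was 0.24 with the run as a block (adjusted p = 0.078), 0.21 with array weights (0.073) and 0.21 to 0.28 without single arrays (adjusted p 0.079 to 0.53).

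Region calls were lost for Mgll and Daglb under an alternative. Mgll 1370831_at in ethanol rats had adjusted p of 0.085 after repeated normalization and 0.076 without low-correlation arrays, and Daglb 1384788_at in water rats 0.068 after repeated normalization. With the mean of its probe sets Mgll reversed, to -0.5127 in ethanol rats and -0.4353 in water rats. That mean also takes in 1388644_at and 1375247_at, which were lower in CeA. Why the probe sets differ and why the calls were lost was not tested.

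Ethanol differences near 0 changed sign; the within-run values were added after seeing the data. In CeA, Mgll 1388644_at was 0.0155 with array weights and 0.0069 and 0.1122 in runs 1 and 2, and Mgll 1375247_at -0.0565 and -0.6613 in runs 1 and 4. Faah 1368717_at was -0.1434 in run 4, and Faah 1384341_at 0.0009 with weights and 0.0535, 0.0173 and 0.1065 in runs 1, 2 and 4. Daglb 1382440_at was 0.0192 in run 1 and 0.0311 without low-correlation arrays, and Daglb 1384788_at 0.1366, 0.0147 and 0.0152 in runs 1, 2 and 4. Abhd6 1390155_at was 0.0097 with weights, 0.0341 as the mean of probe sets and 0.0997 in run 2. In NAc shell, Cnr1 1369677_at was -0.0470 with weights and -0.0334 without low-correlation arrays, Faah 1368717_at -0.0076 with weights, and Faah 1384341_at -0.0063 with Gapdh, -0.0071 with weights and -0.0116 without low-correlation arrays. Daglb 1382440_at was 0.0412 as the mean of probe sets and Abhd6 1380332_at -0.0063 after repeated normalization. Without single arrays the ranges crossed 0 for Abhd6 1380332_at (-0.0248 to 0.0505) and Daglb 1382440_at (-0.0255 to 0.0168) and Faah 1384341_at (-0.0124 to 0.0168) in NAc shell, and for Daglb 1382440_at (-0.0327 to 0.0372) and Daglb 1384788_at (-0.0287 to 0.0189) in CeA.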
